A study of Mus musculus with 5 samples.

Results

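Cadherins and protocadherins, the calcium-dependent adhesion receptors of the cell surface, were examined in RNA of mouse embryonic stem cells, which are grown from the early embryo and can form all its tissues. The genes were all those whose symbol in the deposited table was Cdh followed by a number or began with Pcdh. This gave 28 of the 24538 genes in the table, 18 numbered cadherins and 10 non-clustered protocadherins. The table names 10855 genes by symbol and 13683 by assembly IDs that it does not pair with symbols. No symbol of the clustered protocadherins (Pcdha, Pcdhb and Pcdhg), of Cdh1, the epithelial cadherin that holds stem cell colonies together, or of Cdh3 was among the rows, and these genes were not analysed here.

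The comparison sets deleted against wildtype libraries. The deleted group has 2 libraries of cells that lack the −45 super-enhancer, a dense block of enhancers named by its position relative to the pluripotency gene Nanog. The wildtype group has 3 libraries of cells that carry it. The series' design text speaks of 3 libraries in each condition, of which the deletion has 2 here. Per the labels' protocols, cells in 6-well plates were given either ethanol, the vehicle, or 4-hydroxytamoxifen for 6 days, after which RNA was extracted. The labels do not say which library had which treatment, whether replicates were separate cultures or clones, or the strain and sex of the cells. The p-values therefore rest on the spread between libraries alone, and that spread may be technical.

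Classical cadherins bind one another across the gap between neighbouring cells through repeated extracellular domains, while their tails bind catenins, which link them to the actin cytoskeleton. Type I members such as Cdh2 hold tightly packed tissues together, and type II members are typical of neurons, mesenchyme and endothelium. Cdh16 and Cdh17 have more extracellular repeats and a short tail without the catenin-binding region. Non-clustered protocadherins lack that region as well, and their delta-2 branch (Pcdh8, Pcdh10, Pcdh17, Pcdh18 and Pcdh19) is known mainly from the developing nervous system and mesoderm.

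The libraries held 93574214 to 99133883 counts in the deleted group and 114838177 to 213042064 in the wildtype group, summed over exon bins, the stretches into which exons are divided where transcripts differ. The 28 genes took 925 and 990 of these counts in deleted and 1095 to 2294 in wildtype libraries, or 0.000927% to 0.00108% of a library. Levels are given as CPM, a gene's counts scaled to one common library total after TMM correction for differences in composition. At this depth 1 count was worth 0.0107 and 0.0101 CPM in deleted and 0.00463 to 0.00875 CPM in wildtype libraries. Wildtype 3 was the deepest library and differed most within its group, at a chi-square per degree of freedom of 93.4 and 87.4 against wildtype 1 and 2, where that pair itself gave 9.96 and the deleted pair 21.9. The labelled cell type could not be checked, since none of 10 pluripotency markers, among them Pou5f1, Sox2 and Nanog, had a row under its symbol. Rows with symbols held only 0.328% to 0.375% of the counts, so the family was read among genes of low counts.

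Of the 28 genes, 16 passed the filter on low values, which asks for about 0.0871 CPM in at least 2 libraries. All 16 reached it in at least 2 wildtype libraries, so none was tested only because it was high in deleted cells. Cdh10 reached it in wildtype libraries alone, and Cdh6 and Pcdh18 in only 1 deleted library. In deleted cells 3 of the 16 were higher, 1 was lower and 12 did not pass the threshold, a Benjamini-Hochberg adjusted p under 0.05 in edgeR's quasi-likelihood test. Of all 16259 tested genes 39.7% passed, and of those with symbols 32.1%, with 19% higher and 13.1% lower, so the share of called members, 4 of 16, was near the background. The median log2 fold change (deleted minus wildtype) of the 16 was −0.14, beside 0.07 over all tested symbols. The genes that rose were Cdh17, Cdh15 and Pcdh19, and the gene that fell was Cdh4. In bulk RNA, fewer cells that express a gene cannot be told apart from less RNA per cell.

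**Figure D1:**
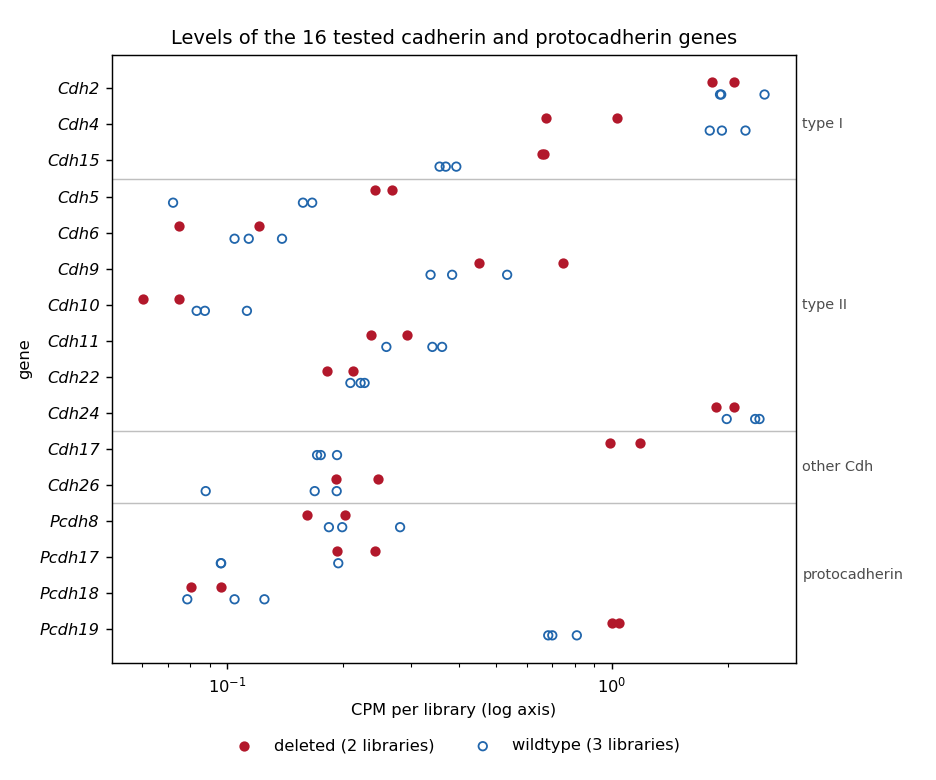
CPM of the 16 tested genes in each library on a log axis, with genes grouped by branch; filled points are the 2 deleted and open points the 3 wildtype libraries. The deleted points of Cdh17, at 1.18 and 0.989 CPM, lie far right of its wildtype points, those of Cdh4 lie left of them, and most other genes overlap.

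Summed over all 28 genes, levels were 9.91 and 9.99 CPM in deleted and 9.33, 9.58 and 10.6 CPM in wildtype libraries, so the family total of one group lay inside the range of the other. The 3 type I members together had 3.41 and 3.50 CPM in deleted and 4.22, 4.10 and 5.07 CPM in wildtype libraries. The 12 type II members had 3.54 and 3.72 CPM in deleted and 3.48, 3.99 and 3.88 CPM in wildtype libraries. The 10 protocadherins had 1.53 and 1.57 CPM in deleted and 1.26, 1.11 and 1.39 CPM in wildtype libraries. The type I sum was lower and the protocadherin sum higher in both deleted libraries than in every wildtype one, while the type II sums overlapped. Single genes weigh heavily in these sums. Cdh4 averaged 0.852 CPM in deleted and 1.98 CPM in wildtype cells, while Cdh15 was higher in deleted cells and Cdh2 overlapped. Pcdh19 averaged 1.02 CPM in deleted and 0.731 CPM in wildtype cells, while Pcdh8, Pcdh17 and Pcdh18 overlapped between groups. The sums are descriptions and were not tested.

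Cdh17, the liver-intestine cadherin of gut epithelium, had the largest difference among the 16 genes. It stood at 1.18 and 0.989 CPM in deleted 1 and 2, against 0.193, 0.175 and 0.171 CPM in wildtype 1, 2 and 3. Both deleted libraries lay far above all wildtype libraries, and the wildtype libraries differed little among themselves. In raw counts this was 110 and 98 against 24, 20 and 37. The deleted mean was 1.08 ± 0.134 CPM (SD, n = 2) and the wildtype mean 0.180 ± 0.0116 CPM (SD, n = 3), a 6.03-fold difference. The log2 fold change was 2.59 ± 0.19 (SE; adjusted p = 3.24e-05, edgeR), with a 95% interval of 2.16 to 3.03. It passed in all 15 other settings tried, at 2.46 to 2.70.

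The rise of Cdh17 ran along the gene rather than resting on one exon. Of its 18 exon bins, 17 held counts, and 16 had a higher CPM in both deleted than in all wildtype libraries. Among bins with a count in tested symbols, 18.3% lay above in this way and 12.7% below. The most counted bin, bin 18, held 16% of the gene's counts on average in deleted and 16% in wildtype cells (SD 3.35 and 0.862 percentage points, n = 2 and 3). It had 15 and 18 counts in deleted, against 4, 3 and 6 in wildtype libraries. With that bin alone, Cdh17 met the filter only through the deleted libraries. Bin 1 had no count in any library, and bin 2 had 3 counts in all, none of them in deleted cells. Bins of one gene share reads and libraries and are not replicates.

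**Figure D2:**
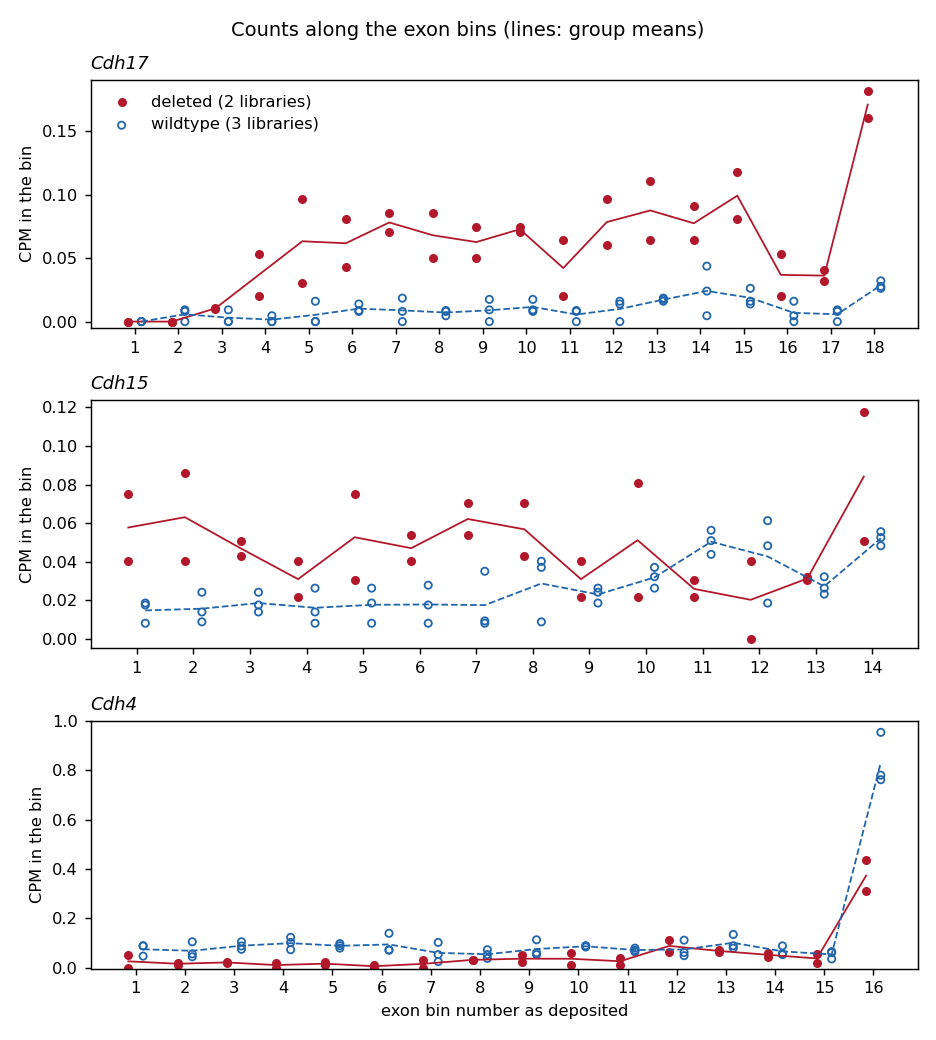
CPM in each exon bin, numbered as deposited, of Cdh17, Cdh15 and Cdh4; filled points and solid lines are the deleted libraries and their mean, open points and dashed lines the wildtype libraries and their mean. Deleted points lie above wildtype points in 16 of 18 bins of Cdh17 and in 7 of 14 bins of Cdh15. They lie below in 1 bin of Cdh15 and in 11 of 16 bins of Cdh4.

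Cdh15, the muscle cadherin of myoblasts and satellite cells, was at 0.664 and 0.656 CPM in deleted, against 0.370, 0.394 and 0.356 CPM in wildtype libraries. The groups did not overlap, at 62 and 65 counts in deleted and 46, 45 and 77 in wildtype libraries. The deleted mean was 0.660 ± 0.00586 CPM (SD, n = 2) and the wildtype mean 0.373 ± 0.0190 CPM (SD, n = 3), a 1.78-fold difference. On the log2 scale Cdh15 rose by 0.83 ± 0.18 (SE; adjusted p = 0.00601, edgeR). It passed in all 14 other settings that could test it, at 0.78 to 0.86. Cdh15 lies on chromosome 8, where the median over the other 157 tested symbols was 0.52 (log2 fold change) and 42.7% of them rose, against 0.07 and 19% over all tested symbols outside the family. The 95% interval of Cdh15, 0.42 to 1.23, contains that chromosome's median. The part of the chromosome in the rise of Cdh15 was not tested. Summed over bins 1 to 8 the groups lay apart, and summed over the remaining bins they overlapped. Of its 14 single bins, 7 lay above wildtype in deleted cells, 1 below (bin 11) and 6 overlapped, bin 4 among them. The split after bin 8 was chosen after the values were seen and was not tested.

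Pcdh19, an X-linked delta-2 protocadherin of neurons whose human counterpart is an epilepsy gene, was the only protocadherin called. Its levels were 1.04 and 0.999 CPM in deleted, against 0.699, 0.683 and 0.810 CPM in wildtype libraries. Both deleted libraries were higher than every wildtype library. The deleted mean was 1.02 ± 0.0284 CPM (SD, n = 2) and the wildtype mean 0.731 ± 0.0692 CPM (SD, n = 3), and Pcdh19 rose by 0.47 ± 0.15 on the log2 scale (SE; adjusted p = 0.0389, edgeR). This call was not firm. It ended when any one of deleted 1, deleted 2, wildtype 1 and wildtype 2 was left out (edgeR adjusted p = 0.0972 to 0.175) and with DESeq2 (adjusted p = 0.0798), limma-voom (0.0514), no low-count filter or the most counted bin alone, all at log2 fold changes of 0.42 to 0.48. The other tested X-chromosome symbols had a median of 0.17, and a lincRNA on the opposite strand, Gm26851, overlaps 57 bases of Pcdh19 exons in GENCODE vM21, and with no strand setting known their reads cannot be told apart.

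The start regions of Cdh15 and Pcdh19, called genes that both rose, are shown so that their sequences can be compared. They come from RefSeq on GRCm38.p6, a build other than the authors' mm9, and run from 250 bases before to 50 bases after the start on the gene's own strand. Such windows were kept here for 19 of the 28 genes, which does not show that the rest lack one. Cdh15 is at chr8:122848124-122848423 on the plus strand and Pcdh19 at chrX:133688944-133689243 on the minus strand. Capitals mark E-boxes, the CANNTG motif bound by basic helix-loop-helix factors. The pattern is its own reverse complement, so a match is found on both strands, although its middle bases may read differently.
Cdh15: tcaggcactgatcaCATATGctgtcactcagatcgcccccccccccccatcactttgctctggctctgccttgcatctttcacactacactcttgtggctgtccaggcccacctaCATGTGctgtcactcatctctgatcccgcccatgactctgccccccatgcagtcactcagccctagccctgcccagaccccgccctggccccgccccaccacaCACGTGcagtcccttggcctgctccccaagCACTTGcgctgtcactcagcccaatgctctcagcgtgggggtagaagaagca
Pcdh19: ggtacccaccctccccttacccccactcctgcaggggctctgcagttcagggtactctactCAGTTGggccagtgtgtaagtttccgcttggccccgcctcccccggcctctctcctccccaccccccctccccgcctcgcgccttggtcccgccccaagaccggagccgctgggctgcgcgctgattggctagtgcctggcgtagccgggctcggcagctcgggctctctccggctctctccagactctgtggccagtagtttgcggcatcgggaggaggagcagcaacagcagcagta
The window of Cdh15 holds 4 E-boxes and that of Pcdh19 holds 1. Of 32851 RefSeq windows of this length, 72.3% hold at least 1. The share of windows with 4 or more was not counted. Neither of these start regions holds CAGCTG, an E-box form that occurs in 16.3% of windows. CAGGTG or CACCTG, the E-box form bound by the cadherin repressors Snail and Zeb, is also absent from both and occurs in 20.2% of windows. CG dinucleotides number 7 in Cdh15, equal to the median of 7 over all windows, and 18 in Pcdh19, more than in 70.3% of windows. These matches describe letters and not bound sites.

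Cdh4, the retinal cadherin of retina and brain, was the single member that fell. It stood at 0.675 and 1.03 CPM in deleted, against 1.93, 1.79 and 2.22 CPM in wildtype libraries. Both deleted libraries were below every wildtype library, although they differed from each other. The deleted mean was 0.852 ± 0.251 CPM (SD, n = 2) and the wildtype mean 1.98 ± 0.218 CPM (SD, n = 3). The log2 fold change was −1.22 ± 0.19 (SE; adjusted p = 0.00120, edgeR), with a 95% interval of −1.65 to −0.79. It passed in all 15 other settings, at −1.58 without deleted 2 and −0.95 without deleted 1. Chromosome 2, which carries Cdh4, had a median of −0.07 over its other tested symbols.

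Along Cdh4, 11 of 16 bins were lower in both deleted than in all wildtype libraries, none was higher, and 5 overlapped. Bin 16 alone took 42.4% of all its counts, at 29 and 43 in deleted and 97, 87 and 206 in wildtype libraries. Its share of the gene averaged 44.1% in deleted and 41.9% in wildtype cells (SD 2.74 and 1.33 percentage points, n = 2 and 3). Bin 12 went the other way, holding 10.2% of the gene's counts in deleted and 3.64% in wildtype cells (SD 0.891 and 1.26 percentage points), at an edgeR adjusted p of 0.685. Exon usage, the division of a gene's counts among its bins, could be tested for Cdh4, Cdh2, Cdh24 and Pcdh19, and none passed (edgeR Simes adjusted p = 0.824 for Cdh4 and 1 for the others; the lowest unadjusted p was 0.0688, for Cdh4). Of all genes in that test 2.76% passed, and of those with symbols 0.126%. Bin 1 of Cdh2 held 19.1% of its counts in deleted and 26.9% in wildtype cells (SD 4.36 and 1.31 percentage points), and in Cdh24 9 of 12 bins overlapped between groups.

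Cdh2, the neural cadherin that mesoderm cells also gain at gastrulation, was measured at 2.07 and 1.82 CPM in deleted, against 1.92, 1.91 and 2.49 CPM in wildtype libraries. The groups overlapped, with wildtype 3 the highest of the 5. Its log2 fold change was −0.13 ± 0.15 (SE; adjusted p = 0.539, edgeR), with a 95% interval of −0.47 to 0.22, and 0.01 without wildtype 3. Counts of Cdh4 per count of Cdh2, a ratio within each library, were 0.326 and 0.567 in deleted, against 1, 0.940 and 0.892 in wildtype libraries. The type I cadherins thus did not move as one, since one rose, another fell and Cdh2 had an interval that spans 0.

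None of the 7 tested type II cadherins passed the threshold, where 32.1% of all tested symbols did. Cdh24, the most counted gene of the family, had 2.07 and 1.87 CPM in deleted, against 1.99, 2.35 and 2.42 CPM in wildtype libraries. These groups overlapped, and its log2 fold change of −0.20 ± 0.13 (SE; adjusted p = 0.257, edgeR) had a 95% interval of −0.49 to 0.09.

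Cdh5, the endothelial junction cadherin, had 0.268 and 0.242 CPM in deleted, against 0.0723, 0.166 and 0.157 CPM in wildtype libraries. The deleted libraries were the 2 highest, and wildtype 1, with 9 counts, was far below the others. Its log2 fold change was 0.91 ± 0.36 (SE; adjusted p = 0.0739, edgeR), and it passed without wildtype 3 (1.10; edgeR adjusted p = 0.0369). Cdh5 lies on chromosome 8, as Cdh15 does. Of 4 tested endothelial markers (Kdr, Tek, Tie1 and Flt1) none passed, where 32.1% of all tested symbols did. The list summed to 7.04 and 7.56 CPM in deleted and 6.43 to 8.88 CPM in wildtype libraries.

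Cdh11, a mesenchymal cadherin of bone and connective tissue and also on chromosome 8, had 0.236 and 0.293 CPM in deleted, against 0.362, 0.341 and 0.259 CPM in wildtype libraries. Its groups overlapped, and its log2 fold change of −0.25 ± 0.27 (SE; adjusted p = 0.501, edgeR) lay on the other side of 0 from the median of its chromosome. Of 6 tested fibroblast markers 4 rose and none fell, all 4 being collagen genes (Col1a2, Col5a2, Col6a1 and Col6a2), where 19% of all tested symbols rose. Col6a1 met the filter in no wildtype library and so was tested only because it was high in deleted cells, at 0.0964 and 0.222 CPM against 0.0321, 0.0263 and 0.0463 CPM in wildtype libraries. The list of 11 genes with rows summed to 9.70 and 9.92 CPM in deleted and 6.80 to 9.56 CPM in wildtype libraries, and Dcn, Lum and Postn were at 0 to 0.0139 CPM in every library. The part of such cells in the cadherin results was not tested.

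Cdh9, a type II cadherin of neuronal synapses, had 0.450 and 0.747 CPM in deleted, against 0.338, 0.534 and 0.384 CPM in wildtype libraries. Deleted 2 was the highest, and deleted 1 lay among the wildtype libraries. The log2 fold change was 0.54 ± 0.28 (SE; adjusted p = 0.155, edgeR), but 0.85 without deleted 1 and 0.10 without deleted 2. An antisense gene, Gm49127, overlaps 224 bases of its exons.

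Cdh22, a cadherin of brain, had 0.182 and 0.212 CPM in deleted, against 0.209, 0.2275 and 0.222 CPM in wildtype libraries. Cdh6, a cadherin of kidney and neural crest, had 0.0750 and 0.121 CPM in deleted, against 0.105, 0.114 and 0.139 CPM in wildtype libraries. Cdh10, a brain cadherin, had 0.0750 and 0.0606 CPM in deleted, against 0.113, 0.0875 and 0.0833 CPM in wildtype libraries. Cdh22 and Cdh6 overlapped between groups, while Cdh10 was lower in both deleted libraries at only 7 and 6 counts. Cdh10 met the filter in wildtype libraries alone and so was tested only because it was higher there. Log2 fold changes were −0.15 ± 0.27 for Cdh22, −0.30 ± 0.39 for Cdh6 and −0.45 ± 0.44 for Cdh10 (SE; adjusted p = 0.683, 0.579 and 0.447, edgeR). Without overlap between groups, 4 of the 16 genes lay above wildtype in deleted cells (Cdh5, Cdh15, Cdh17 and Pcdh19) and 2 below (Cdh4 and Cdh10), where 32.8% and 24.2% of all tested symbols did so.

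Cdh26, which belongs to neither classical type, had 0.247 and 0.192 CPM in deleted, against 0.169, 0.1925 and 0.0879 CPM in wildtype libraries. Deleted 2 was level with wildtype 2, and at a log2 fold change of 0.63 ± 0.39 the threshold was not reached (SE; adjusted p = 0.234, edgeR). Without wildtype 3, its lowest library, the log2 fold change was 0.27.

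**Figure D3:**
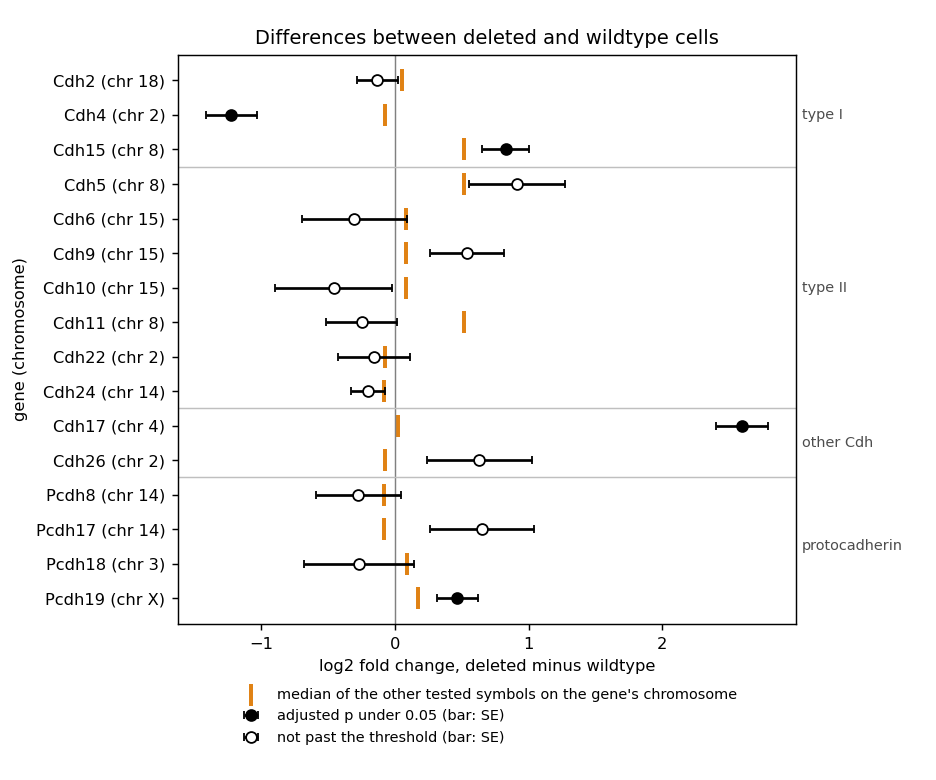
Log2 fold change (deleted minus wildtype) with its SE for each of the 16 genes, filled where the adjusted p was under 0.05; orange bars mark the median of the other tested symbols on the same chromosome. Cdh17 lies at 2.59 and Cdh4 at −1.22, far from their chromosomes' medians of 0.02 and −0.07, while on chromosome 8, with a median of 0.52, Cdh15 and Cdh5 lie to its right and Cdh11 lies on the other side of 0.

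Among the delta-2 protocadherins, Pcdh17, a presynaptic adhesion protein, had 0.193 and 0.242 CPM in deleted, against 0.0964, 0.0963 and 0.194 CPM in wildtype libraries. Wildtype 3 lay at the level of deleted 1, and wildtype 1 and 2 held 12 and 11 counts. Its log2 fold change was 0.65 ± 0.39 (SE; adjusted p = 0.217, edgeR) with all libraries and 1.16 without wildtype 3, where it passed (edgeR adjusted p = 0.0253).

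Pcdh8, a protocadherin of paraxial mesoderm and synapses, had 0.161 and 0.202 CPM in deleted, against 0.281, 0.184 and 0.199 CPM in wildtype libraries. Pcdh18 had 0.0964 and 0.0808 CPM in deleted, against 0.105, 0.0788 and 0.125 CPM in wildtype libraries. Both overlapped between groups, at log2 fold changes of −0.27 ± 0.32 and −0.26 ± 0.41 (SE; adjusted p = 0.536 and 0.646, edgeR). Pcdh8 stood at −0.10 without wildtype 1, and Pcdh18 at −0.0664 without wildtype 3. A single bin held 60.4% of the counts of Pcdh8, and another 56.1% of those of Pcdh18. An antisense gene, Gm9748, overlaps 436 bases of Pcdh8 exons.

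The other 12 genes had too few counts to test. They were Cdh7, Cdh12, Cdh16, Cdh18, Cdh19, Cdh20, Pcdh7, Pcdh10, Pcdh11x, Pcdh12, Pcdh15 and Pcdh20, with 1 to 46 counts each over all 5 libraries and fewer than 10 for 5 of them. The highest were Cdh19 with 46, Cdh18 with 33, Cdh20 with 28, Cdh7 with 24 and Pcdh10 with 20. Pcdh10, an axon-path protocadherin of the forebrain, had 1 and 2 counts in deleted, against 7, 3 and 7 in wildtype libraries, and Cdh20 had 3 and 3 against 6, 6 and 10. Pcdh15, a part of the tip links of inner ear hair cells, had 2 counts in all, and Pcdh11x had 1. At this depth no difference could be shown for these genes.

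Per kilobase of exon (lengths from GENCODE vM21), Cdh24 was the most abundant of the 16 in both groups, at 0.564 CPM per kb in deleted and 0.645 CPM per kb in wildtype cells. Cdh17 ranked 2 in deleted cells, at 0.242 CPM per kb, and 10 in wildtype cells, at 0.0402 CPM per kb. Cdh4 ranked 6 in deleted cells, at 0.117 CPM per kb, and 2 in wildtype cells, at 0.273 CPM per kb. Cdh2, at rank 3 in both groups, had 0.241 CPM per kb in deleted and 0.261 CPM per kb in wildtype cells, and Cdh10 was lowest in both, at 0.00674 and 0.00940 CPM per kb. Bin counts can hold a read more than once, so these levels are approximate.

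Genes that work with cadherins were read from lists chosen with earlier results of these data known. Of 26 catenins and junction partners, 5 had rows under a symbol and 4 were tested. None passed, where 32.1% of all tested symbols did. Dsp, the desmosome linker desmoplakin, had 4.37 and 3.95 CPM in deleted, against 1.69, 1.73 and 3.87 CPM in wildtype libraries. Wildtype 3 lay near the deleted libraries, and the log2 fold change of 0.74 ± 0.42 (SE; adjusted p = 0.227, edgeR) became 1.27 without wildtype 3 (edgeR adjusted p = 3.35e-07). Pkp1, a desmosomal plakophilin, and Pvrl4, a nectin, had −0.66 ± 0.40 and 0.06 ± 0.13 (SE; adjusted p = 0.225 and 0.748, edgeR).

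Of 27 other cadherin superfamily genes, 21 had rows and 9 were tested. Of these 1 rose, 1 fell and 7 did not pass, where 19% of all tested symbols rose and 13.1% fell. Their median log2 fold change was 0.15. Ret, a receptor tyrosine kinase with cadherin-like domains, had 1.41 and 1.54 CPM in deleted, against 1.005, 1.10 and 1.03 CPM in wildtype libraries. It rose by 0.50 ± 0.13 on the log2 scale (SE; adjusted p = 0.0150, edgeR), a call lost once deleted 1, deleted 2 or wildtype 1 was dropped (edgeR adjusted p = 0.0506 to 0.118) or with its most counted bin alone (0.493). Celsr2, a planar polarity cadherin with a receptor's transmembrane domain, had 1.85 and 2.37 CPM in deleted, against 2.92, 2.89 and 3.83 CPM in wildtype libraries, and a log2 fold change of −0.61 ± 0.17 (SE; adjusted p = 0.0199, edgeR). That call was lost without deleted 1 (−0.45; edgeR adjusted p = 0.160) and when only the most counted bin was used (0.246). Celsr3, Clstn2 and Dsc2 had 0.28 ± 0.12, −1.16 ± 0.55 and 0.19 ± 0.14 (SE; adjusted p = 0.0946, 0.124 and 0.308, edgeR). Celsr3 passed without wildtype 3 (0.33; edgeR adjusted p = 0.0458) or from its most counted bin (0.72), and Clstn2 without deleted 1 (−2.62; edgeR adjusted p = 0.0444).

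Regulators of epithelial cadherin had 5 rows of 18 listed, with 4 tested and 2 of them lower, against 13.1% of all symbols. Ovol1, a zinc-finger factor that keeps epithelial cells epithelial, had 0.439 and 0.363 CPM in deleted, against 0.739, 0.788 and 0.740 CPM in wildtype libraries. Its groups lay apart, with a log2 fold change of −0.91 ± 0.18 (SE; adjusted p = 0.00409, edgeR) that passed in all 15 other settings. Snai2, a repressor of Cdh1 in epithelial-mesenchymal transition, had 0.236 and 0.222 CPM in deleted, against 0.321, 0.402 and 0.463 CPM in wildtype libraries. Its log2 fold change of −0.81 ± 0.26 (SE; adjusted p = 0.0347, edgeR) passed narrowly. It did not pass once any one of deleted 1, deleted 2, wildtype 2 and wildtype 3 was left out (edgeR adjusted p = 0.0701 to 0.153), nor with DESeq2 (adjusted p = 0.0707), limma-voom (0.0535) or its most counted bin alone (0.207). Zeb2 and Twist1, which also act in that transition, had −0.37 ± 0.32 and −0.17 ± 0.20 (SE; adjusted p = 0.403 and 0.543, edgeR). The value of Zeb2 was −0.0239 without wildtype 3, its highest library. None of the 14 listed regulators of clustered protocadherin choice, among them Ctcf and Smchd1, had a row under its symbol.

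Markers of other cell types that such cultures can hold were set beside these values. In the primitive or visceral endoderm list 3 of 8 tested genes (Sox7, Pdgfra and Cubn) were lower and none higher, against 13.1% of all symbols lower, with sums of 5.20 and 6.47 CPM in deleted and 7.91 to 9.07 CPM in wildtype libraries, and Ttr had no count. In the trophectoderm list 2 of 5 tested genes (Cdx2 and Gata2) were lower and none higher, against 13.1% of all symbols lower. Its sums were 1.95 and 2.09 CPM in deleted and 2.60 to 3.03 CPM in wildtype libraries. Cdx2 had 0.0429 and 0.131 CPM in deleted, against 0.233, 0.175 and 0.245 CPM in wildtype libraries. In the neural list none of 3 passed, where 32.1% of all tested symbols did. Its sums were 6.43 and 7.07 CPM in deleted and 5.83 to 8.41 CPM in wildtype libraries. A few genes carried most of the differences in the endoderm and trophectoderm sums. Cubn had 0.279 and 0.606 CPM in deleted, against 1.67, 2.01 and 1.93 CPM in wildtype libraries, while Gata4, Sox17, Foxa2 and Dab2 did not pass. Gata2 had 1.20 and 0.929 CPM in deleted, against 1.79, 1.92 and 1.84 CPM in wildtype libraries, while Hand1 had a log2 fold change of 0.74 that did not pass. The part of these markers in the cadherin results was not tested.

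**Figure D4:**
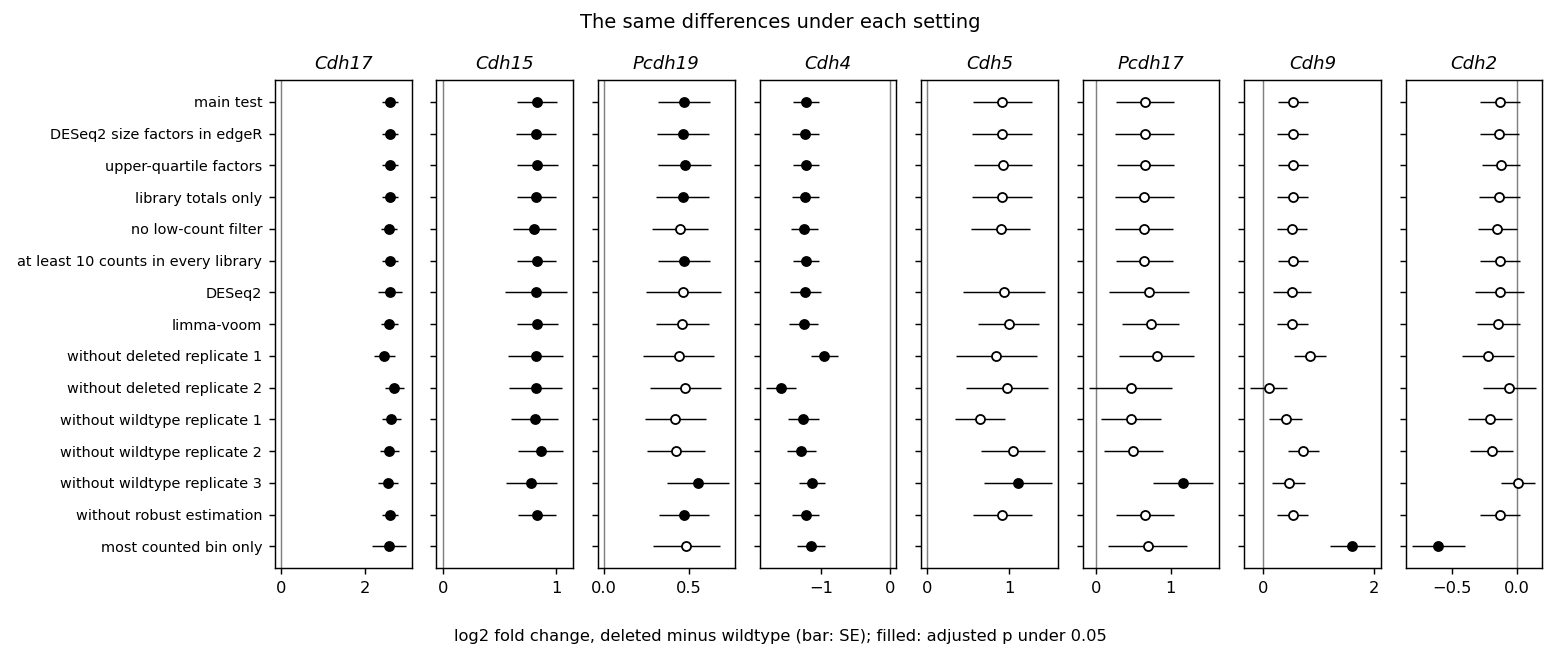
Log2 fold change (deleted minus wildtype) with its SE for 8 genes under the main test and the other settings except the replicate block. Points are filled where the adjusted p was under 0.05. A missing point means that the gene was not tested there. Cdh17, Cdh15 and Cdh4 stay filled and on the same side of 0 throughout, whereas Pcdh19, Cdh5 and Pcdh17 change between filled and open. Cdh9 and Cdh2 are filled only with the most counted bin. In that setting Cdh9 and Cdh17 met the filter only through the deleted libraries.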

How the data were processed

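The authors deposited raw counts for 243771 exon bins in 5 libraries, which were prepared, per the labels' protocols, with NEBNext Ultra reagents. Per the submitters' processing notes STAR and mm9 were used; for the counting tool, annotation and strand no statement is given in the sources used here. Here bin counts were summed per gene, 56 spike-in names left out, genes filtered with filterByExpr (minimum count 10), scaled by TMM and tested with robust edgeR quasi-likelihood fits on all 16259 genes that passed (R 4.3.3, edgeR 4.0.16, limma 3.58.1). Exon usage was tested with diffSpliceDGE. Both tests were tried on simulated data with the same spread set for every gene. That trial does not show how they perform at the spread between these libraries. Every tested member is named; in related lists, those called and up to 3 others by p. The members, lists and rules were chosen with earlier results of these data known. Alternatives were other scalings and filters, limma-voom, DESeq2 1.42.0, only each gene's most counted bin, a replicate block, leaving out each library and, added after seeing the data, no robust estimation. Lengths, chromosomes and overlaps came from GENCODE vM21 (GRCm38) by symbol. Counts are not independent molecules. The 95% intervals of log2 fold changes come from the edgeR fits and include the spread between libraries. Where a deletion library was left out, the lone one was assumed to vary like the wildtype libraries.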

Additional observations from a re-analysis of the deposited data

How the results depend on the processing

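Across the settings, 3 members higher became 2 with no low-count filter, DESeq2 or limma-voom, which lost Pcdh19, and ranged from 2 to 5 when single libraries were left out, the 5 being without wildtype 3. With the most counted bin only 9 members were tested and Cdh15 was not among them. Among these, 2 were higher, Cdh17 and Cdh9. Both met the filter in that setting only through the deleted libraries, and so were tested only because they were high in deleted cells. The 1 member lower became 2, where Cdh2 joined Cdh4 (log2 fold change −0.61, edgeR adjusted p = 0.0391). Of the related genes, 1 higher ranged from 0 to 4 and 3 lower from 2 to 3 without single libraries, and 1 was lower with the most counted bin. Over all genes, 3245 higher and 3208 lower ranged from 1837 to 4197 and from 1718 to 4150 without single libraries. The sign of Cdh2 turned without wildtype 3 (log2 fold change 0.0115, from −0.22 to 0.0115 without single libraries), and that of Twist1 without deleted 2 (0.0860, from −0.50 to 0.0860); neither was called. Without deleted 1 and deleted 2 in turn, Cdh6 gave −0.00781 and −0.71, Cdh11 −0.10 and −0.43, Cdh22 −0.0526 and −0.29, Pkp1 −1.06 and −0.35, and Clstn2 −2.62 and −0.44. The cause of these changes was not tested.

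Replicate numbers were not taken to pair the libraries, since the labels state no pairing. Deviations from group means correlated at 0.0536 for number 1 and −0.0539 for number 2, but the deviations of 2 deleted libraries are exact opposites, so this cannot decide it. With the replicate block, 5 members and 4 related genes were higher, Snai2 did not pass (edgeR adjusted p = 0.0895), the log2 fold change of Cdh2 was 0.0196, and 4203 genes were higher and 3997 lower; the block leaves wildtype 3 without a partner. Exon usage of members stayed at 0 calls in each setting run. Fewer than 100 counts in all limit Cdh6, Cdh10 and Pcdh18 most among the tested members.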

Other observations

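Cdh15 counts were divided unevenly along the gene, a split chosen after its values were seen and not tested. Bins 1 to 8 held 42 and 38 of its counts in deleted, against 16, 18 and 33 in wildtype libraries, or 67.7% and 58.5% against 34.8%, 40% and 42.9% of the gene. In CPM these bins had 0.450 and 0.384 in deleted, against 0.129, 0.158 and 0.153 in wildtype libraries. The remaining bins had 0.214 and 0.273 CPM in deleted, against 0.241, 0.236 and 0.204 CPM in wildtype libraries. These sums lay apart between groups in the first stretch and overlapped in the second. Single bins did not all follow their stretch, since bin 4 overlapped and bin 11 was lower in both deleted libraries. Cdh15 did not enter the exon usage test.

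In Cdh9 the most counted bin, bin 11, had 14 and 22 counts in deleted, against 12, 5 and 11 in wildtype libraries, at shares of 33.3% and 29.7% against 28.6%, 8.20% and 13.3% of the gene. Both deleted libraries had a higher share than every wildtype library, with wildtype 1 close to them. In that bin alone the log2 fold change was 1.60 (edgeR adjusted p = 0.0105), against 0.54 for the whole gene. That bin met the filter only through the deleted libraries, as wildtype 2 and 3 stood at 0.044 and 0.051 CPM.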
